A study of Mus musculus with 7 samples.

Results

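The genes described here are 10 genes of the Wnt pathway: the ligands Wnt2, Wnt5a and Wnt11, the R-spondin Rspo3, the secreted antagonists Dkk1, Dkk2, Sfrp1 and Sfrp5, and Axin2 and Lef1, which are transcriptional targets of the pathway. They were chosen by name and by position only. Every deposited peak of chromatin accessibility that overlapped the interval from 50 kb upstream to 50 kb downstream of a gene body in the GRCm38 mouse genome was taken, and peaks that overlapped between libraries were merged into regions. A region was kept where at least 2 libraries had a peak at a q-value of at most 0.01. This left 72 regions at the 10 genes, of 71981 regions over the genome.

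Accessibility was measured by ATAC-seq, in which a transposase cuts open DNA and attaches sequencing adapters to it, in cells sorted from the second heart field (SHF) region of mouse embryos at E9.5. GFP+ cells (2 libraries, replicates 3 and 4) and GFP- cells (2 libraries, replicates 1 and 2) came from the Hoxb1-GFP line, and Tomato+ cells (2 libraries, replicates 6 and 8) and Tomato- cells (1 library, replicate 7) came from the Mef2c-Cre;RosatdT line. GFP marks cells that express the Hoxb1 reporter, in the posterior SHF. Tomato marks cells in which Cre, driven by an SHF enhancer of Mef2c, has been active at any time, together with their descendants, so that it is a lineage label, and both labels overlap in a small domain. Each library came from cells of several embryos pooled before sorting, and replicates are numbered here by their sequencing adapter. The population and the mouse line cannot be told apart in the comparison of GFP+ with Tomato+ cells. The run name that the peak caller wrote for Tomato+ replicate 6 carries the letters YFP, whereas the sample labels place this library in the Mef2c-Cre;RosatdT line, so that the counts that rest on it are also given without it. The single orders below set all libraries of a group above all of another. Leaving a library out can end such an order only where the region is lost or redrawn. This happened to 1 order, that of the region upstream of Sfrp1, so that the other orders are no check of this library.

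Wnt ligands bind Frizzled receptors and LRP co-receptors on the receiving cell. In the canonical branch this stabilizes beta-catenin, which enters the nucleus and activates genes together with the TCF/LEF transcription factors, while Wnt5a and Wnt11 are best known as ligands of the non-canonical branch. R-spondins keep Frizzled receptors at the cell surface, Dickkopf proteins bind the co-receptors, and secreted Frizzled-related proteins bind the ligands. In the SHF, canonical signalling is known for the expansion of progenitors, and Wnt5a and Wnt11 for the deployment of progenitors to the outflow tract.

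The 7 peak lists held between 187914 and 291287 peaks per library, of which 64306 to 77746 had q of at most 0.01, and rested on 52.3 to 93.1 M tags. Promoters of a short list of blood markers had a peak in 0 to 2 of 5 cases in the libraries of GFP+, Tomato+ and GFP- cells and in 3 of 5 in the Tomato- library. The endothelial list reached 1 or 2 of 4 in those libraries and 3 of 4 in the Tomato- library. The posterior SHF list reached 4 of 5 in both GFP+ libraries, 2 and 4 in the Tomato+ libraries, and 3 to 5 in the sort-negative libraries, so that it did not separate the sorted populations. The anterior SHF list reached 3 of 5 in both Tomato+ libraries and 3 or 4 in the others. The neural tube list reached 3 of 3 in each library but Tomato+ replicate 6, with 2. The endoderm list reached 0 to 2 of 3. These counts are no measure of the share of a cell type. The part of these other cells in the results below was not tested.

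Over all 7 libraries the windows of the 10 genes, 1461 kb in total, held 1528 deposited peaks, of which 461 had q of at most 0.01. The libraries differed little in this respect, with 60 to 71 such peaks each, or 0.083 to 0.0985% of the peaks that passed the limit in the library. Of the 72 regions, 15 lay at a promoter of a member, defined as 1000 bp upstream to 100 bp downstream of a transcription start site (TSS), 4 at a promoter of a neighbouring gene and 53 elsewhere. The last are called distal below, even where they lie close behind a start site. Lef1 had the most regions with 16, followed by Axin2 and Sfrp1 with 9 each, Wnt11 and Sfrp5 with 8, Wnt2 with 6, Rspo3 with 5, Dkk1 and Dkk2 with 4 and Wnt5a with 3. Per 100 kb of window, Sfrp5 with 7.67 and Lef1 with 7.47 had the most, and Dkk2 with 2.05 and Wnt5a with 2.44 the fewest.

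**Figure D1:**
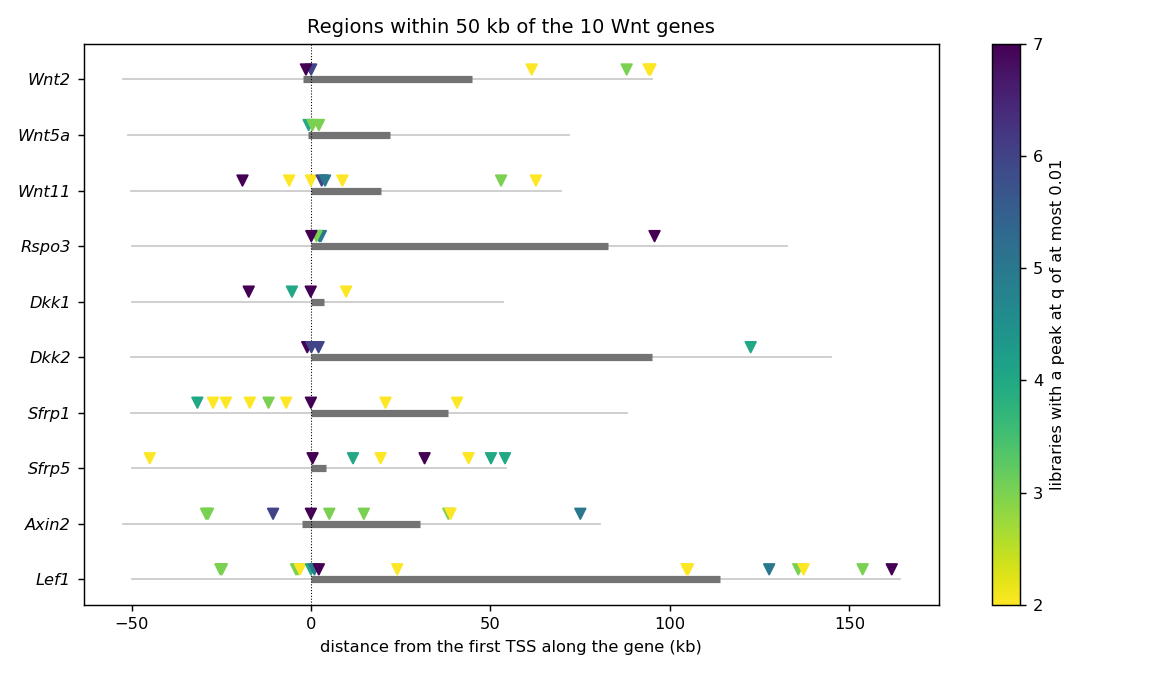
Position of the 72 regions along the windows of the 10 genes, in kb from the first TSS in the direction of transcription. Grey bars are gene bodies, thin lines the windows, and the colour of each triangle is the number of libraries, 2 to 7, with a peak at q of at most 0.01. Regions found in all 7 libraries lie mostly at the start sites, while the distal regions around Lef1, Sfrp1 and Axin2 were found in few libraries each.

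Distal regions of the Wnt genes were found in fewer libraries than distal regions over the genome. Of the 53, 3 (5.66%, 95% Wilson interval 1.94 to 15.4) had a peak at q of at most 0.01 in all 7 libraries, against 21.8% of all distal regions, and 37 (69.8%) had one in 2 or 3 libraries, against 51.7%. At promoters in the windows, 10 of 19 (52.6%, 31.7 to 72.7) had one in all 7, against 74.3% of promoter regions over the genome. The height of a peak is given as fold enrichment, the ratio of the pileup of tags at the summit to the local background that the peak caller computed in the same library. For each region the median over the 7 libraries was taken, a library without a peak counting as 0. The median of these over regions was 3.45 at the 19 promoters, against 5.25 over all promoter regions. At the 53 distal regions it was 2.71, against 3 over all distal regions. These medians are lowered by missing peaks too, so that they do not measure height alone. No test was made of these differences.

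The depth set a limit to every comparison of heights. The pileup at the summits of these regions lay between 6 and 57 tags, with a median of 15, for which an exact 95% Poisson interval runs from 8.4 to 24.7 tags. Such intervals cover counting error only.

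A promoter peak at q of at most 0.01 was found in all 7 libraries for 9 of the 10 genes. Over all protein-coding genes this held for 53.1% of 21000. The exception was Wnt5a, which had no such peak in either Tomato+ library. In these bulk libraries, fewer cells with an open site and a site that is less open in each cell cannot be told apart.

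**Figure D2:**
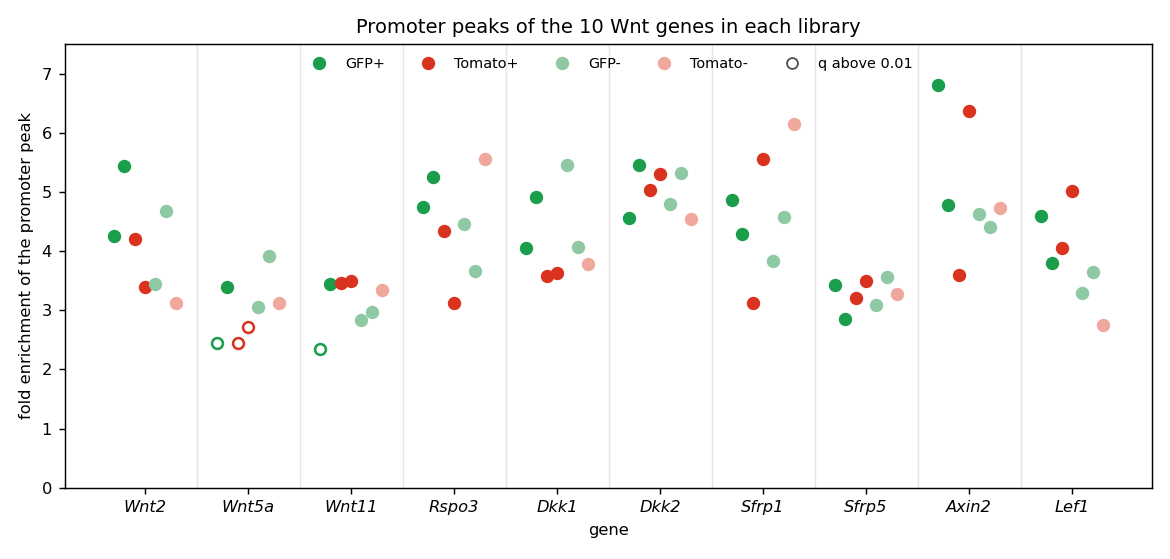
Fold enrichment of the promoter peak (vertical axis) of each of the 10 genes in the 7 libraries, at the TSS with the highest median. Each point is 1 library, coloured by sorted population, and open points had q above 0.01. The Axin2 promoter spanned 3.6 to 6.8, and the open points of Wnt5a include both Tomato+ libraries.

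Wnt2 (chr6:17985474-18032772, minus strand) encodes a ligand expressed in the posterior SHF and lung-forming mesoderm. Its promoter peak had a fold enrichment of 4.25 and 5.44 in the GFP+ libraries, 4.21 and 3.4 in the Tomato+ libraries, 3.45 and 4.68 in the GFP- libraries and 3.12 in the Tomato- library. Both GFP+ values were above both Tomato+ values, by a margin of 4.25 to 4.21, and GFP- replicate 2 lay within the GFP+ range. The promoter held 2 regions. The one over the start site had 4.25 and 5.44 in GFP+ and 2.98 and 3.4 in Tomato+ cells, and the one 1.41 kb upstream had 3.79 and 3.6 in GFP+, 4.21 and 3.2 in Tomato+, 4.57 and 3.94 in GFP- cells and 3.12 in Tomato- cells. Both GFP- libraries thus exceeded both GFP+ libraries upstream, and both GFP+ libraries exceeded both Tomato+ libraries at the start site. The upstream order was lost when positions were taken as a percent of each list. The bases just before the annotated start are shown because the order of the populations at Wnt2 rests on this region.
Wnt2 start site, chr6:18030446-18030508, minus strand: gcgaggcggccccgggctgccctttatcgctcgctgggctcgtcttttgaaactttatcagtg

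Wnt5a (chr14:28504543-28527448, plus strand) had the lowest median promoter peak of the ligands, each taken at its strongest start site. At the first TSS of Wnt5a the fold enrichment was 2.44 and 3.4 in GFP+, 2.44 and 2.72 in Tomato+, 3.05 and 3.91 in GFP- and 3.13 in Tomato- cells. GFP+ replicate 3 and both Tomato+ libraries missed the q limit there, while both GFP- libraries and the Tomato- library passed it. At the second TSS, GFP+ replicate 3 had 3.88 and passed the limit, Tomato+ replicates 6 and 8 had 2.44 and 2.72 and did not, the Tomato- library had 2.78 and passed, and the other 3 libraries had no peak. No Wnt5a region was ordered by population in any of the comparisons below.

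Wnt11 (chr7:98835084-98854747, plus strand) has 2 annotated start sites. The downstream one had a peak at q of at most 0.01 in 6 libraries, with fold enrichments of 2.35 and 3.45 in GFP+, 3.46 and 3.49 in Tomato+, 2.83 and 2.97 in GFP- and 3.34 in Tomato- cells. The upstream one differed: it had 2.99 and 2.65 in GFP+ cells, both past the limit, no deposited peak in either Tomato+ library, 1.84 and 2.03 in GFP- cells and 1.74 in Tomato- cells, none of these past the limit. It was the only member promoter with a peak past the limit in both libraries of 1 sorted population and in no other library. It was also a weak one, at 36.8% and 58.6% of the GFP+ lists counted from the highest fold enrichment. Its orders over Tomato+ and GFP- were lost at q of at most 0.0001 and when either GFP+ library was left out. The region entered the set only through the GFP+ libraries, so that this contrast is a description and the second loss was fixed in advance. The stretch in front of this TSS is shown because it carries this difference, with a TCF/LEF string in capitals.
Wnt11 upstream start site, chr7:98834992-98835083, plus strand: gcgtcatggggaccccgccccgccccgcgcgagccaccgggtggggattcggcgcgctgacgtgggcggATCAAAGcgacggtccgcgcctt

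Rspo3 (chr10:29453106-29535867, minus strand) encodes a secreted enhancer of Wnt signalling. Its promoter had 4.75 and 5.25 in GFP+, 4.34 and 3.12 in Tomato+, 4.46 and 3.66 in GFP- and 5.55 in Tomato- cells. The GFP+ libraries lay above both Tomato+ and both GFP- libraries, but the highest value was that of the Tomato- library.

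Among the antagonists, the promoter of Dkk2 (chr3:132085266-132180304, plus strand) was even over the libraries, with 4.56 and 5.46 in GFP+, 5.04 and 5.31 in Tomato+, 4.8 and 5.32 in GFP- and 4.55 in Tomato- cells. Sfrp5 (chr19:42197971-42202252, minus strand) was lower and as even, from 2.85 to 3.56, and all groups overlapped. Sfrp1 (chr8:23411383-23449632, plus strand) ranged from 3.13 in Tomato+ replicate 6 to 6.15 in the Tomato- library, with 5.55 in Tomato+ replicate 8, so that the Tomato+ libraries spanned most of the range over all 7. Dkk1 (chr19:30545876-30549496, minus strand) had 4.05 and 4.91 in GFP+, 3.58 and 3.63 in Tomato+, 5.46 and 4.07 in GFP- and 3.78 in Tomato- cells within its promoter window. GFP+ lay above Tomato+ in this window. Over the whole merged region, which reaches past the window, Tomato+ replicate 8 had 4.07 and GFP- replicate 2 had 5.16, and the order of GFP+ over Tomato+ was lost, while both GFP- libraries lay above both GFP+ libraries. The stretch before the Dkk1 start site is shown because it is one of 2 member promoters with a TCF/LEF string near the summit, in capitals.
Dkk1 start site, chr19:30549497-30549678, minus strand: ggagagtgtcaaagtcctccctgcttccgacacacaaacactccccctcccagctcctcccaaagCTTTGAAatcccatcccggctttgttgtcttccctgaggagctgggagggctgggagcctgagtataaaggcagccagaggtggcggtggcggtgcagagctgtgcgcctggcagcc

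Axin2 (chr11:108917828-108950783, plus strand) is a feedback inhibitor that is transcribed in response to beta-catenin and serves as a reporter of the canonical pathway. Its promoter reached 6.8 and 4.78 in GFP+, 3.6 and 6.36 in Tomato+, 4.63 and 4.4 in GFP- and 4.72 in Tomato- cells. Both GFP+ libraries lay above both GFP- libraries, by 4.78 against 4.63 at the closest, and the Tomato+ libraries took the lowest and the second highest places. That order was lost when libraries were ordered by the p-value of the peak or by scaled fold enrichment. In rank, the peak was number 10399 of the list in GFP+ replicate 3, 12800 in Tomato+ replicate 8 and 53695 in Tomato+ replicate 6.

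Lef1 (chr3:131110297-131224357, plus strand) encodes a TCF/LEF factor and is itself a target of the pathway. The promoter at the third annotated start site of Lef1, within the gene, had 4.59 and 3.8 in GFP+, 4.05 and 5.02 in Tomato+, 3.29 and 3.64 in GFP- and 2.75 in Tomato- cells, and passed the q limit in every library. The Tomato- library had 2 peaks in this window. The other, no higher in fold enrichment, had a -log10 q-value of 7.59, above 7.06 in GFP+ replicate 4 and 5.77 in Tomato+ replicate 6. The order of this region was kept when libraries were ordered by the p-value of the peak. The first and second start sites, which lie close together, shared a weaker peak, with 3.39 and 2.64 in GFP+, 3.34 and 2.78 in Tomato+ and 2.24 in GFP- replicate 1, no peak in GFP- replicate 2, and 1.84 in the Tomato- library. Only the 4 sort-positive libraries passed the limit at these sites. The order by fold enrichment, sort-positive above sort-negative, was therefore the same at both of these promoters. At the fourth start site, further inside the gene, only GFP+ replicate 4 passed the limit, with 3.66. The bases in front of the first start site are shown for this reason.
Lef1 first start site, chr3:131110189-131110296, plus strand: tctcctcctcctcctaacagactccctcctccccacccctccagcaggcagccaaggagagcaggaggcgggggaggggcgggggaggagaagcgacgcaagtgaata

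An order was counted only where every library of the higher group had a peak at q of at most 0.01 and stood higher in its own list, by fold enrichment, than every library of the lower group in its own list. Positions were counted from the top of each list, so that the different lengths of the lists enter the order. With positions as a percent of the list, an alternative added after seeing the data, GFP+ over Tomato+ was found in 12 regions (16.7%, against 16.1% of all regions), Tomato+ over GFP+ in 4 (5.56%, against 9.72%) and sort-positive over sort-negative in 3 (4.17%, against 2.3%). With 2 libraries against 2 the smallest two-sided exact permutation p is 0.333, and with 4 against 3 it is 0.0571, so no exact permutation test of a single region could pass 0.05. No other test was made on these peak heights, and the counts are set beside the share of all 71981 regions with the same order. For the 34 of 38 orders counted at the Wnt genes in which the lower group had a peak at all, the 95% counting intervals of the nearest libraries of both groups overlapped. In the other 4 the lower group had no peak and so no interval. Intervals that overlap do not separate the closest pair of libraries, but they do not show that its values are equal. Each order below is a description.

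**Figure D3:**
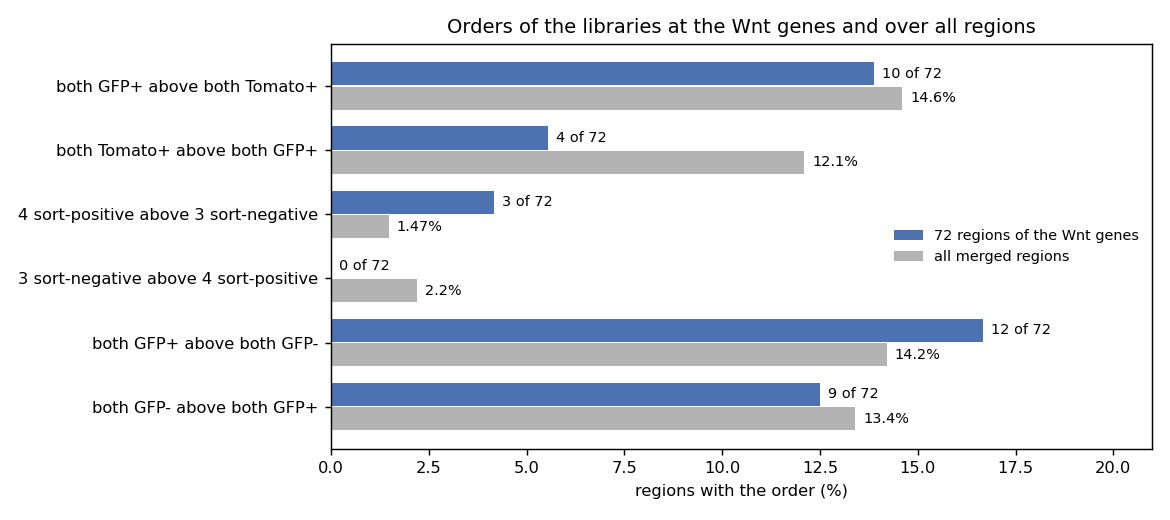
Share of regions (horizontal axis, percent) in which the libraries of a group all lay above those of another, for the 72 regions of the Wnt genes (blue, with the count) and for all 71981 regions (grey). The shares are close for GFP+ over Tomato+ and for GFP+ against GFP-, and 4.17% against 1.47% for the sort-positive over the sort-negative libraries. For Tomato+ over GFP+ the share is 5.56% (Wilson interval 2.18 to 13.4) against 12.1%. Without Tomato+ replicate 6, not drawn, it was 31.8% against 32.4%.

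Both GFP+ libraries lay above both Tomato+ libraries in 10 of the 72 regions (13.9%), against 14.6% of all regions. The reverse order was found in 4 (5.56%, Wilson interval 2.18 to 13.4), against 12.1%, which lies within the interval. The second share depended on Tomato+ replicate 6: without that library it was 21 of 66 regions (31.8%), against 32.4% of all regions, while the first was 12 of 66 (18.2%) against 24.1%. In the other settings that left out a library of these populations the share of Tomato+ over GFP+ stayed below the background, with 16.9% against 30.4% without Tomato+ replicate 8, 10.6% against 20% without GFP+ replicate 3 and 12.3% against 20.6% without GFP+ replicate 4. The 10 regions lay at Rspo3 (3), and at Wnt2, Wnt11, Axin2, Dkk1, Dkk2, Sfrp1 and Sfrp5 (1 each). The 4 lay at Rspo3, Dkk1, Dkk2 and Sfrp1, so that each gene with a region higher in Tomato+ cells also had one higher in GFP+ cells.

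Rspo3 was the gene with the most regions ordered GFP+ over Tomato+, 3 of 5: the promoter and 2 neighbouring intronic regions just behind it. These regions were named after their values were seen. The one 2.75 kb into the gene had 4.06 and 4.75 in GFP+, 3.38 and 2.95 in Tomato+, 3.93 and 2.55 in GFP- and 2.99 in Tomato- cells. The one 2.33 kb into the gene had 4.05 and 3.44 in GFP+, 3.15 and 2.72 in Tomato+, 2.86 and 3.45 in GFP- and 3.62 in Tomato- cells. In the first, GFP- replicate 1 lay close below the GFP+ libraries, and in the second the Tomato- library and GFP- replicate 2 lay between them. The second counted as GFP+ over GFP- by list position, with 3.44 against 3.45 in fold enrichment, and this was lost with scaled fold enrichment and with percent of list. Both summits are shown, 201 bases each, because they lie next to each other and share the order.
Rspo3 intron, first, chr10:29533016-29533216, minus strand: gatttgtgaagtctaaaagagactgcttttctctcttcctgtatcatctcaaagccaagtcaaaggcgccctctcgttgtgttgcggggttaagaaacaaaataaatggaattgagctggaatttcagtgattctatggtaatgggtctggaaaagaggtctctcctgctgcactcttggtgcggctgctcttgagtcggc
Rspo3 intron, second, chr10:29533437-29533637, minus strand: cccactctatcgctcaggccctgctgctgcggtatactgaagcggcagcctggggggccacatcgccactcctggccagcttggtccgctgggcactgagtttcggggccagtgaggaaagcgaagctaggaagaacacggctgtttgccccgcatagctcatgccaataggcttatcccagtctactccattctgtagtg

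The strongest peak at any of the 10 genes was also near Rspo3, 95.7 kb downstream of its start site, and ran the other way. It had 5.42 and 6.76 in GFP+, 13.8 and 11.6 in Tomato+, 9.56 and 13.8 in GFP- and 12.5 in Tomato- cells, so that the GFP+ libraries were the lowest of the 7. Its 130 bases were masked as repeats over their whole length, and the 31-base words around its summit had a median of 1326 copies in the genome. A peak on such a sequence cannot be assigned to this copy with certainty, and it is shown whole for that reason.
Repeat near Rspo3, chr10:29440081-29440210, minus strand: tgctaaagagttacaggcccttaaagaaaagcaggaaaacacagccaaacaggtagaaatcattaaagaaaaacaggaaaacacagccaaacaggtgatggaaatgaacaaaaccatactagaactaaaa

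Sfrp1 had a region in each direction. The region in its intron, 20.8 kb from the start, had 4.98 and 3.12 in GFP+ cells, 2.28 and 2.61 below the q limit in Tomato+ cells, and no deposited peak in any of the 3 sort-negative libraries. The one 6.92 kb upstream had 3.5 and 3.34 in Tomato+ cells, no peak in the GFP+ and GFP- libraries and 2.57 below the limit in Tomato- cells. In both, the libraries of the groups differed in whether a peak passed the limit at all, yet the pileups were 18 and 13 tags in GFP+ cells for the first and 10 and 12 in Tomato+ cells for the second. Neither order was kept at q of at most 0.0001. Each was lost when either library of its higher group, Tomato+ replicate 6 included, was left out. Each region entered the set only through its higher group. The contrast is therefore a description, and the loss without a library was fixed in advance. The sequences around both summits are shown as the pair of Sfrp1 regions with opposite orders.
Sfrp1 intron, chr8:23432160-23432360, plus strand: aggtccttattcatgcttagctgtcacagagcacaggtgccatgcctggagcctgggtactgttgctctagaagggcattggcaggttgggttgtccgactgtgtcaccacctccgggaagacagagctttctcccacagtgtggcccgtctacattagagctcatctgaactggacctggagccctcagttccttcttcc
Sfrp1 upstream, chr8:23404477-23404639, plus strand: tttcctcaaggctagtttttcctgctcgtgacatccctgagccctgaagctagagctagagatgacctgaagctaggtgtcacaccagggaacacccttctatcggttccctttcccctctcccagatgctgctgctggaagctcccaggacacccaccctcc

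At the Dickkopf genes the regions were likewise mixed. An intronic region of Dkk2, 2.1 kb from the start, had 5.02 and 4.02 in GFP+, 2.83 and 3.67 in Tomato+, 3.51 and 3.98 in GFP- and 3.56 in Tomato- cells, and both GFP+ libraries were the highest, by 4.02 to 3.98 at the closest. The order over GFP- was lost with scaled fold enrichment and with percent of list. A region 123 kb downstream of the Dkk2 start had 2.41 and 3.75 in GFP+ against 4.27 and 4.53 in Tomato+ cells. For Dkk1, the region 5.31 kb upstream had 3.31 and, below the limit, 3 in GFP+, 3.79 and 4.25 in Tomato+ cells and 3.8 in GFP- replicate 2, with no peak in the other sort-negative libraries. The region 17.4 kb upstream of Dkk1, in the 3′ UTR of Prkg1, had 6.02 and 5.5 in GFP+, 4.6 and 5.38 in Tomato+, 3.52 and 4.61 in GFP- and 6.04 in Tomato- cells. This last region is 94% masked as repeats, and the words at its summit had a median of 2 copies. The Dkk2 region downstream, the 5.31 kb Dkk1 region, and a weak region 50.1 kb downstream of Sfrp5 with 3.23 and 3.43 in GFP+ and 3.06 and 2.26 in Tomato+ cells, were named after their values were seen. With fold enrichment scaled to the median of shared regions, GFP+ no longer lay above Tomato+ at the Sfrp5 region and at the Axin2 region 10.6 kb upstream described below.

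All 4 sort-positive libraries lay above all 3 sort-negative libraries in 3 of the 72 regions (4.17%, Wilson interval 1.43 to 11.5), against 1.47% of all regions, and the reverse order was found in 0, against 2.2%. The 3 regions were at the 2 target genes: both promoters of Lef1 described above, and a region 10.6 kb upstream of Axin2. The last had 3.68 and 3.98 in GFP+, 3.54 and 3.53 in Tomato+, 2.88 and 2.67 in GFP- and 2.93 in Tomato- cells. Only GFP- replicate 2 missed the q limit there. The pileups were 13 to 21 tags in the sort-positive and 12 to 15 in the sort-negative libraries. Without Tomato+ replicate 6 the count was 4 of 66 (6.06%), against 3.53%. At q of at most 0.0001 only the region at the third Lef1 start site kept the order. No difference from the background was tested. The region upstream of Axin2 was named after its values were seen. Its summit stretch is shown because the region was the only distal one with this order. It holds no TCF/LEF string.
Axin2 upstream, chr11:108909678-108909850, plus strand: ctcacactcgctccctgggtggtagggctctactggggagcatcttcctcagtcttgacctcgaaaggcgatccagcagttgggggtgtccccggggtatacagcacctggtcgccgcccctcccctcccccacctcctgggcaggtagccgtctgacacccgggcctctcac

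Both GFP+ libraries lay above both GFP- libraries, which come from the same line, in list position in 12 of 72 regions (16.7%), against 14.2% of all regions, and below them in 9 (12.5%), against 13.4%. By percent of list these were 12 (16.7%, against 17.7%) and 8 (11.1%, against 9.16%). Among the 12 were the regions of Axin2 and Lef1 just given, the Axin2 promoter, the upstream Wnt11 promoter, the Rspo3 promoter and the Sfrp1 intron. A region in an intron of Hadh, within the Lef1 window, had 4.3 and 3.07 in GFP+, 3.2 and 3.42 in Tomato+ and 3.57 in Tomato- cells, while GFP- cells had no peak in 1 library and 2.2 below the limit in the other.

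Among the 9 was the largest height at a distal region of Axin2, 75 kb downstream of its start. It had 8.1 and 6.32 in GFP-, 4.82 and 3.57 in GFP+, 3.68 in Tomato+ replicate 8, no peak in Tomato+ replicate 6, and 2.37 below the limit in Tomato- cells. The GFP- libraries were the highest of the 7, and the Tomato- library was near the bottom, so that the sort-negative cells of both lines differed. An intronic region of Axin2, 14.7 kb from the start, had 3.22 and 3.03 in GFP- cells, no peak in GFP+ or Tomato- cells, and 2.02 and 2.85 in Tomato+ cells. At Lef1, a region 4.18 kb upstream had 3.04 and 2.91 in GFP-, 2.27 in GFP+ replicate 4 and no peak in GFP+ replicate 3, 2.16 and 2.88 in Tomato+ and 1.98 in Tomato- cells.
The remaining ones named by the rule were at the antagonists and Wnt11. A region 31.7 kb upstream of Sfrp1 had 3.9 and 3.26 in GFP-, 3.24 in Tomato- and 3.96 in Tomato+ replicate 8, with 2.41 below the limit in GFP+ replicate 3 and no peak elsewhere. In the 3′ UTR of Marveld1, a membrane protein gene next to Sfrp5, GFP- cells had 3.78 and 3.13 and Tomato- cells 3.81, against 2.61 and 2.51 in GFP+ cells, with 2.67 and 3.23 in Tomato+ cells. In a coding exon of Uvrag, within the Wnt11 window, both GFP- libraries had 3.16, against 2.86 and 2.99 in GFP+ cells, 2.99 and 3.75 in Tomato+ cells and 2.55 in Tomato- cells.

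The distal region with the highest median height was ordered in one of these comparisons at 6 of the 10 genes, all given above, and in none at the other 4. For Wnt11 it was a region of 1661 bp, 19.1 kb upstream, with 4.45 and 3.5 in GFP+, 3.78 and 4.44 in Tomato+, 3.82 and 3.91 in GFP- and 4.03 in Tomato- cells. It passed the q limit in all 7 libraries and the groups overlapped. For Wnt2 it was a region in an intron of St7, 88 kb downstream, with 3.41 and 2.75 in GFP+, 3.52 and 2.71 in Tomato+, 3.02 and 3.53 in GFP- cells and no peak in Tomato- cells. For Lef1 it lay 24.9 kb upstream, with 5.72 and no peak in the GFP+ libraries, 3.29 and 3.33 in Tomato+, 2.77 and 3.53 in GFP- and 2.81 in Tomato- cells, so that the GFP+ replicates held both ends of the range. For Wnt5a it lay in the 5′ UTR, 409 bp behind the start, with 3.46 in GFP+ replicate 4, 2.29 and 2.63 in Tomato+, 3.04 in GFP- replicate 2, 2.55 in Tomato- cells and no peak in the other 2 libraries.

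The strings CTTTGAA and CTTTGAT, on either strand, were searched within 100 bp of the highest summit of each region, as the core of the sequence that TCF/LEF factors bind. They were found in 5 of the 72 regions (6.94%, Wilson interval 3 to 15.2), against 4.4% of all regions. At promoters in the windows they were found in 2 of 19 (10.5%, 2.94 to 31.4), against 2.26% of all promoter regions, and at distal regions in 3 of 53 (5.66%), against 4.97%. Each background share lay within the Wilson interval except that of promoters, which rested on the Wnt11 upstream start site and the Dkk1 promoter printed above. That exception was gone within 200 bp of the summit, with 3 of 19 promoters (15.8%, 5.52 to 37.6) against 5.56%, and with CTTTGAT alone, with 1 of 19 (5.26%, 0.935 to 24.6) against 0.976%. Over all 72 regions the share within 200 bp was 13.9%, against 9.83%. The 3 distal ones were the intronic Axin2 region 14.7 kb from the start and the regions 4.18 and 25.2 kb upstream of Lef1. None of the 3 regions in which the sort-positive libraries lay above the sort-negative ones held a string. A match is a string of letters and not a measured binding site. The median GC content was 70.1% at the 19 promoters and 56.2% at distal regions, against 66.7 and 53.2% over all regions.

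Of 68 other pathway genes, 41 (60.3%) had a promoter peak at q of at most 0.01 in all 7 libraries and 7 in none, against 53.1% and 28.3% of all protein-coding genes with a peak in all 7 and in none. Of the receptors 17 of 18, of the intracellular components 8 of 10 and of the ligands 3 of 16 had such a peak in all 7 libraries. The ligands among the 10 genes above, of which Wnt2 and Wnt11 had one in all 7 and Wnt5a did not, are outside these 16. Of the antagonists 6 of 14, of the R-spondins 2 of 3 and of the targets 5 of 7 had a peak in all 7. The 7 genes without any were the ligands Wnt7b and Wnt8b and the antagonists Dkk4, Sost, Sostdc1, Cer1 and Kremen2. The number of ligands with a promoter peak was 10 and 11 in the GFP+ libraries, 6 in both Tomato+ libraries, 8 and 10 in the GFP- libraries and 7 in the Tomato- library. Wnt1, Wnt6, Wnt7a, Wnt8a and Rspo1 had one in each GFP+ library but in no Tomato+ library, and only Wnt8a of these had none in any sort-negative library. Sp5, a target of the canonical pathway, had one in 1 Tomato+ library and in neither GFP+ library. Wnt3a, Wnt10a and Wnt10b had one in sort-negative cells only. No share of all protein-coding genes is set beside these patterns or the numbers of ligands per library. They are therefore not read as a trait of the pathway. The GFP+ and GFP- libraries met at 10 ligands, and GFP- replicate 1, with 8, lay next to the Tomato- library with 7. Differences between the populations or the lines in these numbers were not tested.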

How the data were processed

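Per the labels and the study's methods, the authors aligned paired reads with SNAP to GRCm38, removed duplicate, improperly paired and blacklisted reads, and called peaks in each library with MACS2 2.1.1. The header kept with 1 list names release 2.1.0.20150731, no control, a p-value limit of 0.01 and an extension of 73 bp. The lists the authors deposited give the pileup (coverage signal at the summit), the fold enrichment as a ratio to the local background, and the -log10 p-value and -log10 q-value of each summit. Values depend on depth, which was computed from the background rate and lay between 52.3 and 93.1 M tags.

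Where a peak had several summits, the one with the smallest p was used. Peaks at q of at most 0.01 were merged where they overlapped by at least 1 bp, and regions found in at least 2 libraries were kept. Start sites were those of curated RefSeq transcripts (GRCm38.p6), from which the sequences also come. Libraries were ordered by position in their own list by fold enrichment, because no read counts over shared regions were at hand for a count test. The code was tested on simulated data. The members, gene lists and comparisons were chosen with earlier results of these data known. Regions were named by a rule: the distal region of each gene with the highest median fold enrichment, and distal regions or promoters ordered by population where the lower group had no peak past the q limit. Other regions are named as seen after their values. A library without a peak counted as 0 in the medians over libraries. Alternatives were ordering by p, fold enrichment scaled to the median of shared regions, q of at most 0.0001, windows of 20 kb, an overlap of 50%, promoters reaching 500 bp to each side, other string searches and leaving out each library. Positions as a percent of each list and restriction to single-copy sequence were added after seeing the data. Intervals are 95% Wilson or exact Poisson intervals. Scripts ran under Python 3.11.15 with pandas 2.3.3, numpy 2.4.6, pysam 0.24.0 and scipy 1.17.1.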

Additional observations from a re-analysis of the deposited data

Results flagged for a closer look

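In 7 of the promoters and named regions, the sort-positive libraries lay on opposite sides of the sort-negative ones in the 2 mouse lines, by position in each library's list. The differences between the lines were not tested, and the Tomato- side is 1 library. Both GFP+ libraries lay above both GFP- libraries, and both Tomato+ libraries below the Tomato- library, at the upstream Wnt11 start site (median fold enrichment over the libraries 1.74, a library without a peak counting as 0), the intron of Hadh in the Lef1 window (3.2), the region 17.4 kb upstream of Dkk1 (5.38), the Dkk2 intron (3.67) and the Rspo3 promoter (4.46). At the Dkk2 intron this holds by list position only, since Tomato+ replicate 8 had a fold enrichment of 3.67 and the Tomato- library 3.56. The reverse was found in the Uvrag exon in the Wnt11 window (2.99) and in the Axin2 intron 14.7 kb from the start (2.02). Over all 72 regions, 10 had opposite directions in the lines and 9 the same direction. No share over the regions of the genome is set beside these counts, and they are not read as a trait of these genes. Some of the named regions were chosen because GFP+ and GFP- cells were ordered there. With Tomato+ replicate 8 as the only Tomato+ library the direction at each of the 7 is the same by definition, since both Tomato+ libraries had to lie on 1 side. This is therefore no check of Tomato+ replicate 6.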

How the results depend on the processing

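No paired analysis was made. Replicates are numbered by adapter, and the labels do not say which libraries came from the same pool of embryos. Of the 38 orders counted at the Wnt genes, 13 held under every alternative that kept all libraries, and 0 turned around. These alternatives were ordering by p, by scaled fold enrichment, by percent of list (added after seeing the data) and q of at most 0.0001. The same 13 held with each library left out, but this could end an order only where the region was lost or redrawn. At q of at most 0.0001 the windows held 24 regions in place of 72. A promoter peak in all 7 libraries was left at 2 genes in place of 9, with no share over all genes set beside it. GFP+ over Tomato+ was then found in 5 regions (20.8%, against 17.4% of all regions) and Tomato+ over GFP+ in 1 (4.17%, against 13.5%). Sort-positive over sort-negative was found in 1 (4.17%, against 1.7%), GFP+ over GFP- in 5 (20.8%, against 16.4%) and GFP- over GFP+ in 4 (16.7%, against 15.1%). The last was 5 with windows of 20 kb (10.2%, against 13.4%). Scaled fold enrichment gave 1 region with sort-negative above sort-positive (1.39%, against 1.82%), in place of 0. The share of regions with CTTTGAT alone was 1.39%.

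Leaving out 1 library left 63 to 67 regions and 9 genes. The count of GFP+ over Tomato+ ran from 10 to 24, the highest without GFP+ replicate 4 (36.9%, against 31.1% of all regions). It was 20 without GFP+ replicate 3 (30.3%, against 32%) and 17 without Tomato+ replicate 8 (26.2%, against 26.9%). Tomato+ over GFP+ ran from 4 to 21, the highest without Tomato+ replicate 6, with 11 without replicate 8, and 7 and 8 without GFP+ replicates 3 and 4. The shares that belong to these counts are given above. Sort-positive over sort-negative ran from 3 to 5, the highest without GFP+ replicate 3 (7.58%, against 2.97%). The reverse ran from 0 to 6, the highest without GFP- replicate 1 (8.96%, against 6.7%) and without GFP- replicate 2 (8.96%, against 6.95%). GFP+ over GFP- ran from 12 to 22, the highest without GFP+ replicate 3 (33.3%, against 32.4%). GFP- over GFP+ ran from 9 to 23, the highest without GFP- replicate 1 (34.3%, against 30%). A group of 1 library meets an order more easily, and the background shares rose too, to 32.4% for Tomato+ over GFP+ without Tomato+ replicate 6.

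The heights rest on a median of 15 tags, and the intervals of the closest libraries of the groups overlapped in each order with peaks on both sides, while libraries further apart could be separated, as at the repeat near Rspo3. Restriction to single-copy sequence was added after seeing the data. It removed 1 region from each order between GFP+ and Tomato+ and between GFP+ and GFP- cells. This left 9 (13%), 3 (4.35%), 11 (15.9%) and 8 (11.6%). The shares over all regions, which were not restricted, were 14.6, 12.1, 14.2 and 13.4%.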
